A study of Homo sapiens with 2 samples.

Results

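The data are ChIP-seq libraries for H3K27me3, a methylation of histone H3 that marks silent chromatin, from HCT116, a human cell line of colorectal carcinoma. The results below concern 3 windows of 20 Mb on the long arms of chromosomes 8, 10 and 17, in which earlier work on these data had found the level of the mark to be raised towards the chromosome end. The members are the bins of 5 kb in which the mark was low: 5346 bins, of 558535 bins on chromosomes 1 to 22 and X that held a read in both libraries. The bins were chosen by their measured level, under 0.5 in both libraries, where the level is the read count of a bin over the library's mean across autosomal bins with a read. The windows were 60 to 80 Mb of chromosome 8 (1751 low bins), 90 to 110 Mb of chromosome 10 (1685 low bins) and 35 to 55 Mb of chromosome 17 (1910 low bins), on hg19. Low bins made up 43.8%, 42.2% and 48.6% of the bins read in both libraries there, against 55.4% across the autosomes. The series held 1 group of 2 libraries from formaldehyde-fixed cells for which the labels name no treatment or genotype change. The labels call them a biological replicate but name no separate cultures, so the spread between them may be technical. Replicate 1 held 53187504 reads and replicate 2 held 97031399. There was no input library, so copy number was not measured here, and no second condition, so nothing was tested between groups.

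Polycomb repressive complex 2 deposits H3K27me3 over silent genes, many of them regulators of development, and the mark can spread into domains far longer than a gene. Outside such domains a ChIP library still holds reads from unmarked chromatin, which are carried through the pull-down without the antibody's target. The number of these background reads depends on how many copies of a stretch the cells hold, and also on chromatin state and on how much of the stretch can be aligned. Published karyotypes of HCT116 list a duplication on distal 10q and unbalanced translocations that bring extra copies of distal 8q and 17q. A gain of a chromosome segment would be seen in such data as a step in the background level, at the same place in low and in marked bins. The question was where a step lay on each arm and how well these libraries placed it.

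No position was shared by every readout on 8q or 10q, and 17q came closest to a single place. One step was placed on each arm as the 500 kb boundary that left the least squared deviation in the log2 medians of low bins, with at least 5 steps of 500 kb on each side. It fell at 64.5 Mb on chromosome 8, where the low-bin level beyond was 1.16 ± 0.0251 times that before. It fell at 106.5 Mb on chromosome 10, with a ratio of 1.42 ± 0.0432, and at 45 Mb on chromosome 17, with a ratio of 1.62 ± 0.0126 (each SD, n = 2 libraries). These ratios come from the values that chose the members and the step, so they are descriptions and carry no test. The limit of 0.5 leaves out any background bin above it, on either side of a step.

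On 17q the same boundary was placed from each library alone. The median low bin stood at 0.164 before 45 Mb and at 0.266 beyond it in replicate 1, and at 0.157 and 0.253 in replicate 2. These medians correspond to 16 and 26 reads per bin in replicate 1 and to 28 and 45 in replicate 2. None of the 20 steps before 45 Mb reached the median of the steps beyond it, in either library, and 1 of the 19 steps beyond with a low bin lay under the median of those before. That step, from 53.5 Mb, held a single low bin. Single steps varied widely all the same, from 0.0715 to 0.235 before and from 0.0818 to 0.491 beyond in replicate 1.

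The profile of 17q rose in more than 1 place. In pieces of 5 Mb, the median low bin was 0.164 and 0.157 (replicates 1 and 2) at 40 to 45 Mb. It was 0.210 and 0.208 at 45 to 50 Mb and 0.286 and 0.292 at 50 to 55 Mb. From 45 to 49.5 Mb the 500 kb medians ran from 0.179 to 0.276 in replicate 1 and from 0.174 to 0.275 in replicate 2, so the lowest of them lay within the range before the step. From 50.5 to 53 Mb, where no bin was enriched, they ran from 0.266 to 0.317 and from 0.247 to 0.354. Here an enriched bin is one with a level of at least 2 in both libraries. The last step before the boundary, from 44.5 to 45 Mb, was the lowest of the window in replicate 1, at 0.0715, and stood at 0.0730 in replicate 2, and 41 of its 100 bins had no read in at least 1 library. In the step before it, from 44 to 44.5 Mb, 18 bins had none. Without steps that held more than 5 such bins, a setting chosen once the profile was known, the boundary could lie anywhere from 44 to 45 Mb, with the same ratio of 1.62.

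**Figure D1:**
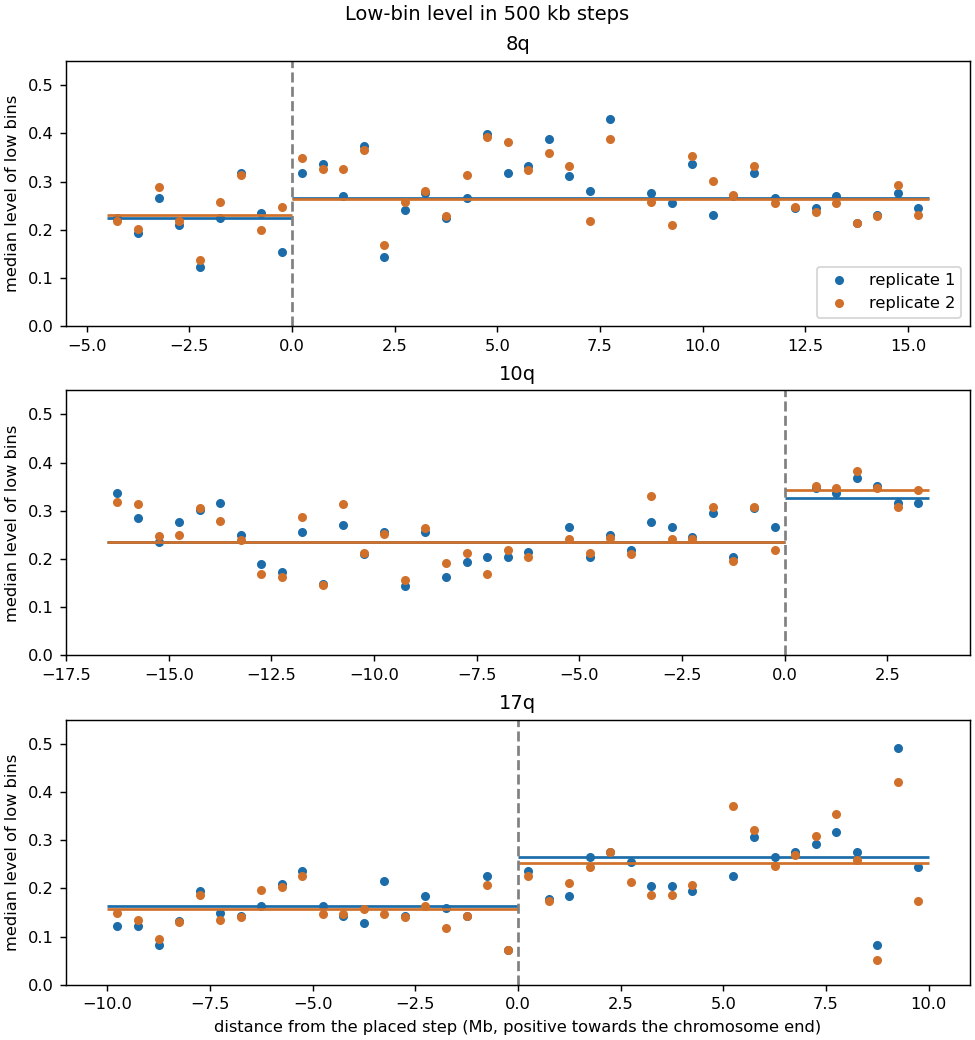
Median level of low bins in each 500 kb step of the 3 windows, by distance from the placed step in Mb. Points are the steps in each library, horizontal lines the median of all low bins on each side, and the dashed line the placed step; the sides are most distinct on 17q (0.164 before and 0.266 beyond in replicate 1) and overlap widely on 8q (0.225 and 0.266).

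On 10q the boundary lay inside a long H3K27me3 domain, where no low bin could place it. The median low bin stood at 0.235 before 106.5 Mb and at 0.327 beyond in replicate 1, and at 0.236 and 0.343 in replicate 2. The step from 106.5 to 107 Mb held 0 low bins and 76 enriched bins, so boundaries at 106.5 and 107 Mb left the same deviation. Replicate 1 alone placed the step at 105.5 Mb and replicate 2 at 106.5 Mb. The 32 steps with a low bin before the boundary ran from 0.143 to 0.337 in replicate 1 and from 0.146 to 0.331 in replicate 2. The 6 beyond ran from 0.317 to 0.368 and from 0.309 to 0.382, which overlaps the upper end of the others: the step from 90 Mb, at the other end of the window, stood at 0.337 and 0.317.

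The raised low-bin level of 10q did not continue to the end of the arm. Beyond the window, from 110 to 135.5 Mb, the median low bin was 0.225 in replicate 1 and 0.228 in replicate 2, against 0.235 and 0.236 in the window before the boundary and 0.194 and 0.197 on the long arm before the window. In pieces of 5 Mb it passed from 0.327 and 0.331 at 105 to 110 Mb to 0.296 and 0.303, 0.266 and 0.270, 0.256 and 0.236, 0.245 and 0.236, and 0.143 and 0.140 at 130 to 135 Mb. The median low bin of the short arm was 0.225 and 0.230. Placed over the whole long arm, also a setting chosen later, the single step moved to 131.5 Mb and was a fall, with a ratio of 0.568.

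On 8q the step was small and its place uncertain. The median low bin stood at 0.225 before 64.5 Mb and at 0.266 beyond in replicate 1, and at 0.230 and 0.264 in replicate 2. Replicate 1 alone gave 64.5 Mb and replicate 2 gave 62.5 Mb. The step from 64 to 64.5 Mb, with 21 low bins, stood at 0.153 in replicate 1 and at 0.247 in replicate 2. Of the 9 steps before the boundary, 1 in replicate 1 and 2 in replicate 2 reached the median of the steps beyond, and 3 and 4 of the 30 beyond lay under the median of those before. The step from 66.5 Mb, beyond the boundary, stood at 0.143 and 0.169, among the lowest of the window, and the step from 63 Mb, before it, at 0.317 and 0.315. From 76 to 80 Mb, a stretch with 0 enriched bins, the medians lay between 0.215 and 0.276 in replicate 1 and between 0.213 and 0.292 in replicate 2. The medians from 60 to 61 Mb ran lower, with some overlap (0.194 to 0.225 and 0.202 to 0.219).

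Beyond the window on 8q the low-bin level varied between pieces of 5 Mb. Over the whole stretch from 80 to 146 Mb it was 0.256 in replicate 1 and 0.258 in replicate 2, against 0.204 and 0.205 on the long arm before the window and 0.204 and 0.208 on the short arm. The pieces ran from 0.215 and 0.225 at 110 to 115 Mb to 0.307 and 0.309 at 135 to 140 Mb, and the last, from 140 to 145 Mb, stood at 0.225 and 0.230, the level before the step. Over the whole long arm the step was placed at the same 64.5 Mb, with a ratio of 1.23. The piece from 55 to 60 Mb, before the window, already stood at 0.266 and 0.264. On 17q the stretch from 55 to 81 Mb held 0.230 in each library, between the values of both sides of the step, and the short arm 0.174 in each. The level of 17q also varied between pieces of 5 Mb. It was 0.245 and 0.230 at 55 to 60 Mb, 0.245 and 0.253 at 60 to 65 Mb and 0.296 and 0.286 at 65 to 70 Mb. It then fell to 0.204 and 0.219 at 70 to 75 Mb and 0.184 and 0.185 at 75 to 80 Mb. On the autosomes other than 8, 10 and 17 the median low bin was 0.194 and 0.197.

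Single steps of this kind were common on the autosomes. Across 468 windows of 20 Mb, taken every 5 Mb and so overlapping, and including those on chromosomes 8, 10 and 17, the levels on the sides of the best single step differed by at least 25%, in either direction, in 61.3%. A step of at least the fold of 8q was found in 80.3% of windows, of 10q in 30.1% and of 17q in 11.1%. The step on 8q removed 20.6% of the squared deviation of its profile, that on 10q 33.1% and that on 17q 32.5%. As much or more was removed in 41.7%, 18.8% and 19.7% of the windows. Steps of the size found on 8q and 10q were thus frequent elsewhere, and that of 17q was less frequent by its fold than by the deviation it removed.

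The same held for boundaries read with fixed flanks. The median of low bins in the 5 Mb beyond was at least 25% above that in the 5 Mb before, in both libraries, at 626 of 5109 autosomal boundaries of 500 kb (12.3%), and the reverse at another 626. At 45 Mb on 17q the ratio was 1.28 in replicate 1 and 1.32 in replicate 2, and at 106.5 Mb on 10q it was 1.33 and 1.44. At 64.5 Mb on 8q it was 1.04 and 1.15, under that minimum. The highest ratio at any boundary of the window was 1.5 and 1.47 on 17q, above that at 45 Mb. On 10q the highest was 1.43 and 1.44, and on 8q 1.33 and 1.28. Within the windows 11 of 39 boundaries passed on 17q, from 45 to 50.5 Mb, 9 of 39 on 10q, from 103 to 107 Mb, and 1 of 39 on 8q, at 68.5 Mb. Neighbouring boundaries share most of their bins, so these counts are not independent, and the windows had been chosen with raised levels in view.

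**Figure D2:**
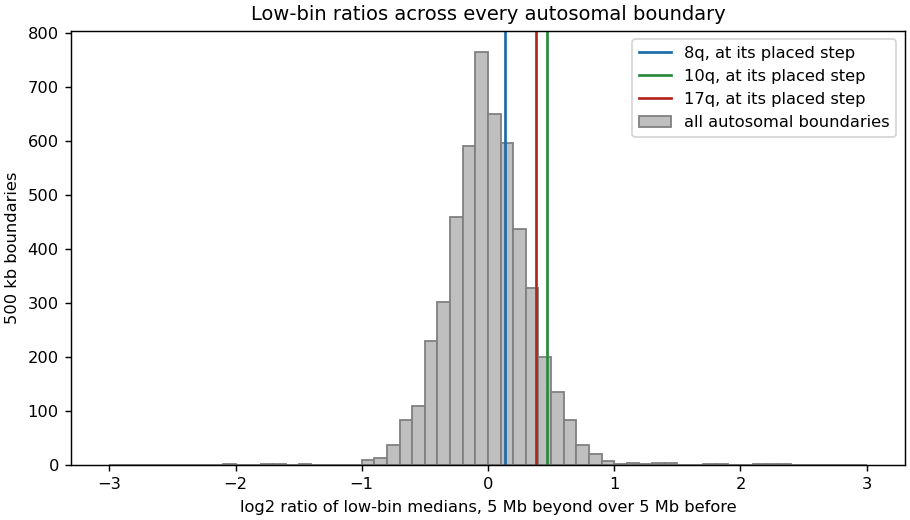
Log2 ratio of low-bin medians in the 5 Mb beyond over the 5 Mb before each of 5109 autosomal boundaries (grey bars, number of boundaries), as the mean ratio of both libraries. Vertical lines mark the placed steps; those of 10q and 17q lie in the right shoulder and that of 8q near the middle.

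Enriched bins, which the rule for members did not use, had a higher median beyond the step on 17q and a lower one beyond it on 8q. On 17q the median enriched bin was at 3.39 before and 4.65 beyond in replicate 1 and at 3.35 and 4.73 in replicate 2, a ratio of 1.39 ± 0.0324 (SD, n = 2), and the 90th percentile passed from 6.17 to 9.68 and from 5.98 to 9.73. On 10q the median was at 4.28 before and 5.16 beyond in replicate 1 and at 4.28 and 5.28 in replicate 2 (ratio 1.22 ± 0.0199), but the 90th percentile was lower beyond, at 8.14 against 8.44 and at 8.03 against 8.44. All 76 enriched bins beyond the step on 10q lay in the 500 kb from 106.5 Mb. On 8q the median enriched bin was at 3.77 before and 3.40 beyond in replicate 1 and at 3.76 and 3.47 in replicate 2 (ratio 0.912 ± 0.0140). Its 90th percentile was 6.22 before and 6.39 beyond in replicate 1 and 6.47 and 6.35 in replicate 2, so the libraries differed in direction. The arms had first been picked for high levels in their marked bins, so a rise of enriched bins within a window is no independent support for a gain.

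Placed from enriched bins, the step fell elsewhere on 8q and 10q. The same procedure was applied to the 90th percentile of enriched bins in each 500 kb step with at least 5 of them, a readout chosen after the data were seen. On 10q it gave 99.5 Mb in both libraries, 7 Mb nearer the centromere than the low bins, with the 90th percentile passing from 4.99 to 8.83 in replicate 1 and from 5.14 to 8.84 in replicate 2. On 8q it gave 68 Mb in replicate 1 and 73.5 Mb in replicate 2. On 17q it gave 45.5 Mb in both, 0.5 Mb from the low-bin position, with a passage from 6.08 to 9.69 and from 5.92 to 9.76. Placed from the mean of both libraries, the step removed 26.8% of the squared deviation on 17q, 36.2% on 10q and 25.7% on 8q. With the median of enriched bins in place of the 90th percentile, 17q gave 45.5 Mb in both libraries and 8q 73.5 Mb in both. On 10q the median gave 106 Mb in replicate 1 and 99.5 Mb in replicate 2, so there the place depended on the library.

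**Figure D3:**
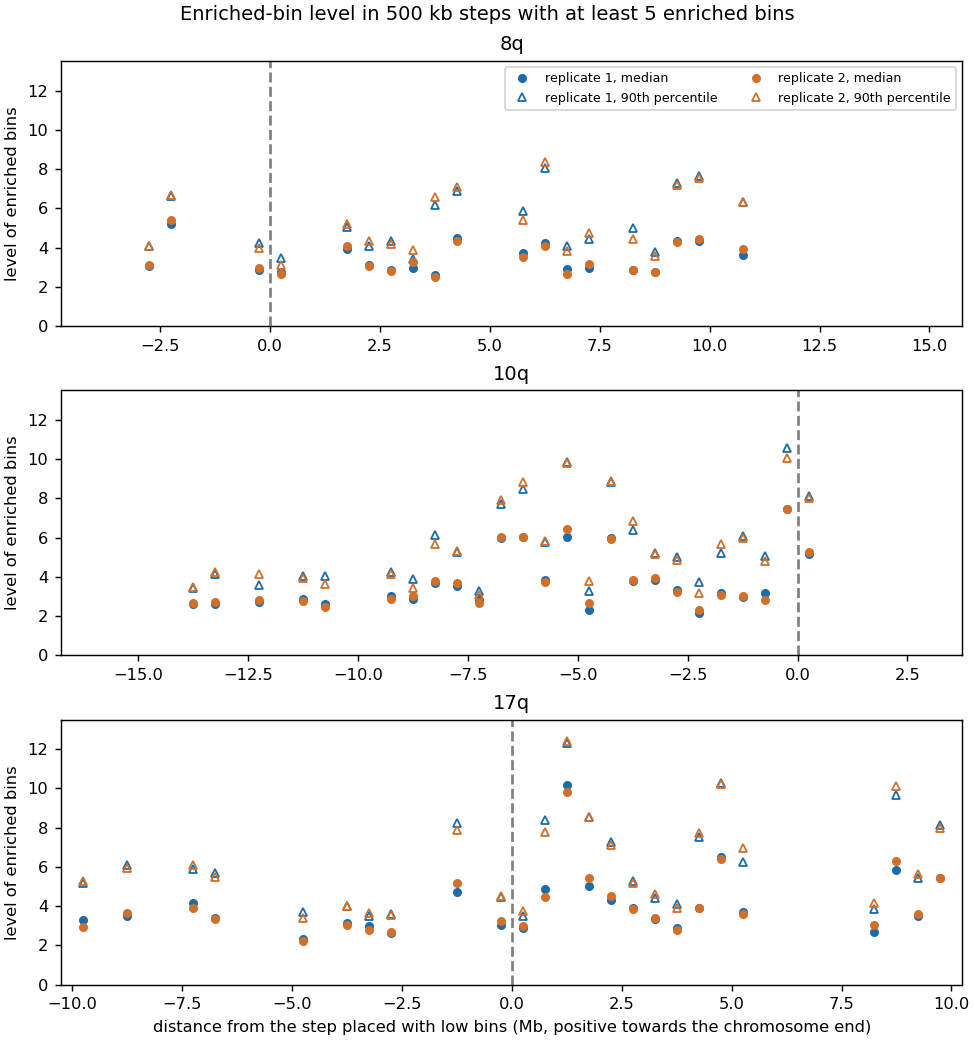
Level of enriched bins in each 500 kb step with at least 5 of them, by distance in Mb from the step placed with low bins (dashed line). Circles are the median and triangles the 90th percentile in each library; on 10q the high values begin about 7 Mb before the dashed line, and on 17q near it.

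**Figure D4:**
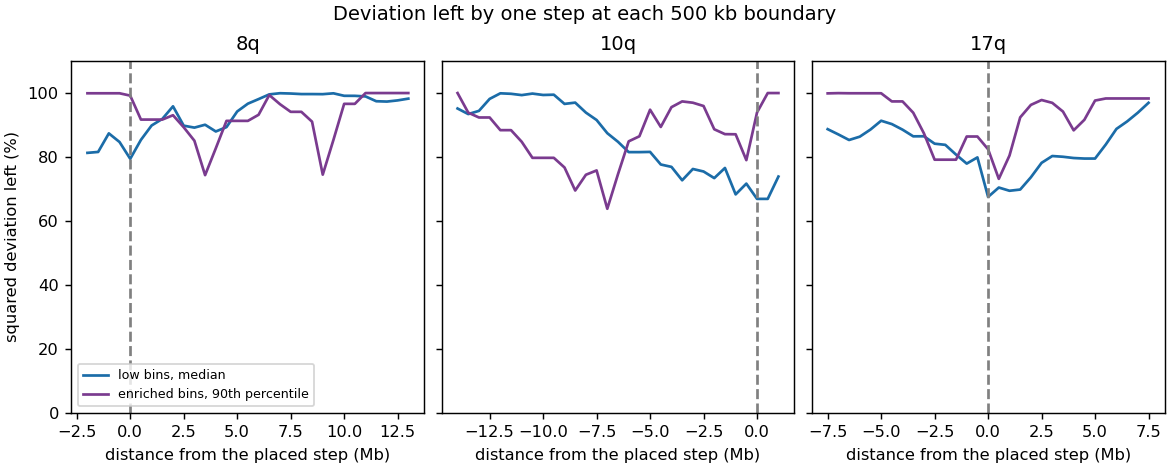
Share of the squared deviation of the log2 profile left after a single step at each 500 kb boundary, for low bins and for the 90th percentile of enriched bins, by distance in Mb from the placed low-bin step. A sharp, shared minimum would mark a single place. The minima lie 0.5 Mb apart on 17q and 7 Mb apart on 10q. On 17q the minima were shallow. Low bins left 67.5% at 45 Mb and 69.8% at 46.5 Mb, and the 90th percentile left 73.2% at 45.5 Mb and 79.2% at 43.5 Mb.

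The stretches on either side also differed in how much of the mark they held. On 17q 9.63% of bins were enriched before the step and 32.3% beyond, against 14.8% of autosomal bins, and low bins made up 58.6% before and 39.0% beyond, against 55.4% of autosomal bins. On 10q the enriched share went the other way, from 20.1% to 10.9%, while low bins went from 39.9% to 53.0%. On 8q the shares were 13.2% and 15.4% for enriched bins and 47.5% and 42.8% for low bins. The part of these differences in the low-bin steps was not tested. A comparison within steps of 500 kb that held 0 enriched bins and at least 20 low ones, chosen after the data were seen, gave medians of 0.166 and 0.169 in the 2 such steps before and 0.291 and 0.309 in the 5 beyond on 17q (replicates 1 and 2). On 10q they were 0.266 and 0.251 in 6 steps before and 0.342 and 0.348 in 6 beyond, and on 8q 0.225 and 0.239 in 4 before and 0.266 and 0.256 in 11 beyond. Across the autosomes, these windows included, such steps ranged from 0.0204 to 0.388 in replicate 1, with a median of 0.204 over 2095 steps. The medians beyond the placed steps lay above that median, as did those before on 8q and 10q. The range holds these same steps, so it cannot show whether their values are unusual. The 5 steps beyond on 17q formed a single stretch, from 50.5 to 53 Mb, which began 5.5 Mb past the placed step. The 2 before it ran from 35.5 to 36 Mb and from 39 to 39.5 Mb. This comparison on 17q thus holds no value from next to the placed step and cannot place it. The 6 beyond on 10q were likewise a single stretch, from 107 to 110 Mb, and those before lay between 90 and 97 Mb.

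How completely the bins were read moved with the step as well. Of the low bins on 17q, 24.0% before and 55.1% beyond had a read in each of their 1 kb parts in both libraries. On 10q the shares were 43.6% and 73.8%, and on 8q 171 of 427 low bins before and 53.5% of those beyond were so read. With low bins restricted to those completely read, the ratio was 1.12 on 17q, at 49.5 Mb, 1.14 on 10q, at 105.5 Mb, and 0.851 on 8q, at 76.5 Mb. A bin with fewer reads is less often read in every part, so this filter also selects on level, and its part in the result was not tested. The counting error of a low bin at the autosomal median was 22.9% of its level in replicate 1 and 16.7% in replicate 2, taking reads as independent.

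The members chosen in 1 library gave ratios of the same order when read in the other. With bins and step from replicate 1 and levels from replicate 2, the ratio was 1.68 at 45 Mb on 17q and 1.45 at 105.5 Mb on 10q, and on 8q the level was 25% higher beyond 63 Mb. With the libraries exchanged the ratio was 1.69 at 45 Mb, 1.42 at 106.5 Mb and 1.29 at 62.5 Mb. Both libraries come from the same cell line, so this reading bears on counting error and not on what sets the level.

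**Figure D5:**
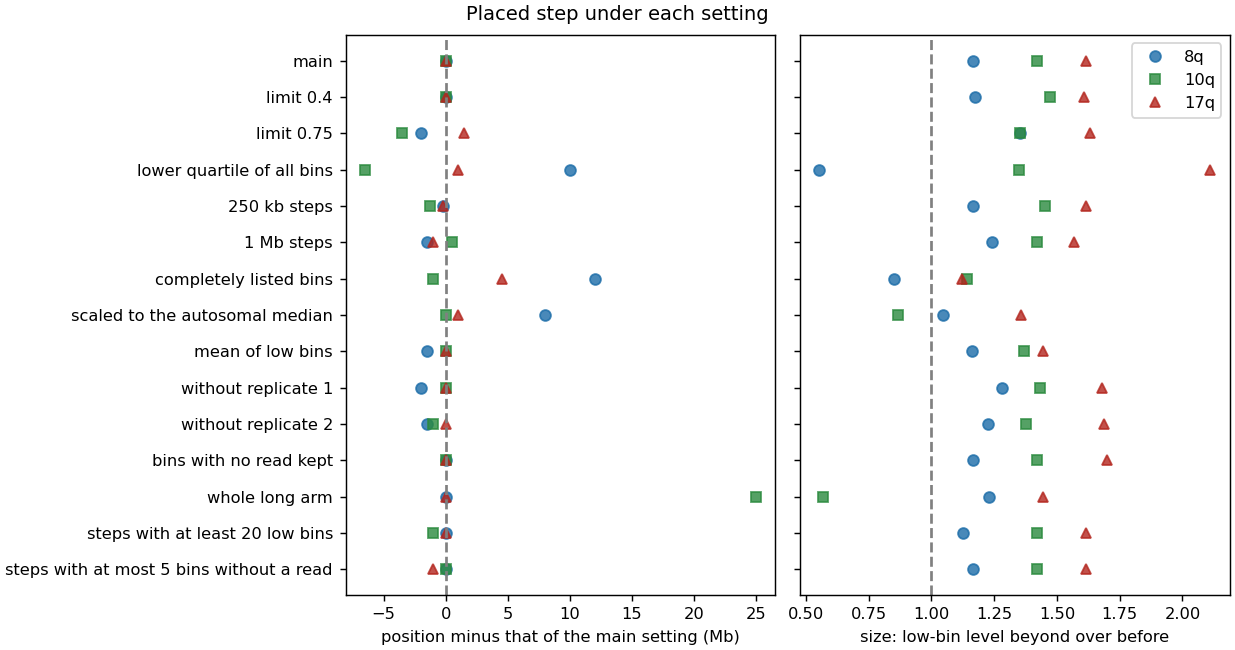
Placed position, as the difference in Mb from the main setting, and ratio of low-bin levels beyond over before, for each arm under every setting tried. The ratio stayed above 1 in all settings on 17q, between 1.12 and 2.11, and fell to 0.554 on 8q and 0.568 on 10q.

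Near the limit of 0.5 the windows held about as many bins on either side of it. Bins whose higher library lay from 0.45 to under 0.5 numbered 145 on 8q, 171 on 10q and 102 on 17q, and bins from 0.5 to under 0.55 numbered 138, 154 and 98. The lowest bin outside the limit stood at 0.501 on each arm. Another 4, 5 and 70 bins had no read in at least 1 library and were under the limit in both; they were left out.

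Long domains of the mark lay on both sides of each step. On 17q the 3 longest before it were chr17:43735001-43885000 (150 kb, level 5.76 ± 0.0122), chr17:34990001-35110000 (120 kb, 3.52 ± 0.0145) and chr17:43895001-43970000 (75 kb, 4.09 ± 0.0810). The 3 longest beyond were chr17:49570001-50035000 (465 kb, 6.48 ± 0.0326), chr17:46205001-46615000 (410 kb, 9.01 ± 0.0358) and chr17:50105001-50380000 (275 kb, 4.44 ± 0.00218; each SD, n = 2). Domains of at least 100 kb numbered 2 before and 9 beyond. The longest domain beyond was also above the longest before in level.

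On 10q the longest domain of the window, chr10:106100001-106695000, crossed the placed step. It covered 595 kb, with levels of 7.14 and 7.05 in the 2 libraries, and the next domain, chr10:106705001-106905000, followed after 10 kb at 4.56 and 4.68. Before the step 7 domains reached 100 kb, among them chr10:100705001-101155000 (450 kb, 5.23 ± 0.0809) and chr10:100210001-100540000 (330 kb, 5.67 ± 0.0717). Both lie just beyond the 99.5 Mb placed from enriched bins. On 8q the longest before the step was chr8:62080001-62410000 (330 kb, 5.15 ± 0.0666). The longest beyond was chr8:73515001-73870000 (355 kb, 4.84 ± 0.0082), followed by chr8:68625001-68840000 (215 kb, 5.34 ± 0.00616; each SD, n = 2). Domains of at least 100 kb numbered 1 before and 4 beyond on 8q. That 1 domain, at 5.15, lay within the range of the 3 longest beyond, from 4.84 to 5.54. The next 2 before were 35 kb each, at 3.07 and 3.28.

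Known Polycomb targets lie on these arms, but no gene was assigned to a domain, because the gene table used has another build. In the order of a GRCh38 gene table, the listed 10q genes include HHEX and NKX2-3, homeobox transcription factors, and then PAX2, TLX1 and LBX1, regulators of kidney, spleen and muscle development. SORCS3 and SORCS1, sorting receptors of neurons, follow beyond these. On 17q the T-box gene TBX21 is followed in the list by the adaptor gene SKAP1 and by the HOXB genes, which pattern the body axis, and on 8q EYA1 and MSC, regulators of ear, kidney and muscle development, lie side by side in the fixed list. Nothing was read from these names about the place of a step.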

How the data were processed

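Read counts per 1 kb bin were deposited by the authors, 1 file per library, with empty bins not listed. The submitters' processing notes name BWA 0.7.12 as a tool and hg19 (GRCh37) as the build. How reads were counted, and whether duplicates or poorly mapped reads were removed, is not given in the sources used here. Counts were summed to 5 kb and divided by the library's autosomal mean over bins with a read (97.8 reads in replicate 1, 178 in replicate 2). Low bins, steps, flanks and enriched bins were then taken as described above; bins without a read in either library were not members. Enriched bins at most 1 bin apart from each other were joined into domains, and the 3 longest on each side of a step are named. The change-point procedure was tested on simulated data with at most a single planted step among independent bins, without domains or regional drift. How well it places a step in profiles like these was not tested. No test between groups was possible with 1 group, and p-values are not given. The windows, lists and members were chosen with earlier results of these data known. Python 3.11.15, numpy 2.4.6, pandas 2.3.3 and matplotlib 3.10.9 were used. Levels of the listed genes and sequences of regions were not analysed here, since no genome or annotation of hg19 was used.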

Additional observations from a re-analysis of the deposited data

How the results depend on the processing

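A value counted as the same when it moved by no more than the SD of the 2 libraries. Of 109 values, 44 stayed the same, 59 moved and 6 changed direction. For the position this SD was 1.41 Mb on 8q, 0.707 Mb on 10q and 0 on 17q, so these counts mix unequal limits. The causes were not tested. On 8q the position of 64.5 Mb, size of 1.16 and enriched-bin ratio of 0.912 became 62.5 Mb, 1.35 and 0.729 with a limit of 0.75; 74.5 Mb, 0.554 and 1.21 with the lower quartile of all bins, where both ratios changed direction; and 63 Mb, 1.24 and 0.729 with steps of 1 Mb. The enriched-bin ratio was 0.760 with steps of 250 kb. Completely listed bins gave 76.5 Mb and 0.851, a change of direction, and scaling to the autosomal median gave 72.5 Mb, 1.05 and an enriched-bin ratio of 1.17, also a change of direction. The mean of low bins gave 63 Mb, the whole arm a size of 1.23 and steps with at least 20 low bins 1.13. With a replicate left out, 8q gave 62.5 to 63 Mb, sizes of 1.23 to 1.28 and enriched-bin ratios of 0.724 to 0.725.

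On 10q the position of 106.5 Mb, size of 1.42 and enriched-bin ratio of 1.22 became 103 Mb and 1.35 with a limit of 0.75, and 100 Mb, 1.35 and 1.52 with the lower quartile of all bins. They became 105.25 Mb and an enriched-bin ratio of 1.45 with steps of 250 kb, and 105.5 Mb, 1.14 and 1.49 with completely listed bins. The size was 1.47 with a limit of 0.4 and 1.37 with the mean of low bins. Scaled to the autosomal median it was 0.868, a change of direction, with an enriched-bin ratio of 1.61. Other bins then counted as low or enriched. The whole arm gave 131.5 Mb and 0.568, a change of direction, and steps with at least 20 low bins 105.5 Mb. With a replicate left out, 10q gave 105.5 to 106.5 Mb, sizes of 1.38 to 1.43 and enriched-bin ratios of 1.26 to 1.47.

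On 17q the position of 45 Mb, size of 1.62 and enriched-bin ratio of 1.39 became 46.5 Mb, 1.63 and 1.15 with a limit of 0.75, and 46 Mb and 2.11 with the lower quartile of all bins. Steps of 250 kb gave 44.75 Mb and steps of 1 Mb 44 Mb with 1.57. Completely listed bins gave 49.5 Mb, 1.12 and 1.23, and scaling to the autosomal median 46 Mb, 1.36 and 1.99. The size was 1.45 with the mean of low bins, 1.70 with bins without a read kept and 1.44 over the whole arm. Steps with at most 5 bins without a read gave 44 Mb. With a replicate left out, 17q gave 45 Mb, sizes of 1.68 to 1.69 and enriched-bin ratios of 1.38 to 1.41. The size on 17q was above 1 in all 14 settings, and the position stayed within 44 to 49.5 Mb. No enriched-bin ratio could be had on 8q with completely listed bins or on 10q with steps of 1 Mb, where no enriched bin lay beyond the step. The settings on bins without a read, on the whole arm and on which steps to use were chosen with the profiles known. Ratios within a library are not changed by its depth, but the limit of 0.5 is set on that scale. No paired analysis was possible because both libraries belong to the same group.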

Other observations

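Of the autosomal 500 kb steps with at least 20 low bins, those with over 20 enriched bins had a median low-bin level of 0.184 in replicate 1 and 0.191 in replicate 2 (597 steps), against 0.204 and 0.208 in the 2095 steps with none. The order differed between the windows. Beyond the step on 17q the level was 0.256 and 0.213 in 5 steps with over 20 enriched bins, 0.204 and 0.208 in 5 with 1 to 20 and 0.291 and 0.309 in 5 with none. Beyond the step on 8q it was 0.337 and 0.354 in the 1 step with over 20, 0.273 and 0.291 in 8 with 1 to 20 and 0.266 and 0.256 in 11 with none. Before the step on 10q it was 0.220 and 0.219 in 7 steps with over 20, 0.253 and 0.242 in 16 with 1 to 20 and 0.266 and 0.251 in 6 with none. The low-bin level thus differed between stretches within 1 side of a step.

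On distal 10q both kinds of bin stood higher than on the long arm before the window. From 110 to 135.5 Mb enriched bins had medians of 4.46 and 4.50 (replicates 1 and 2), against 3.52 and 3.50 on the long arm before the window, and 37.7% of bins were enriched against 14.6%. The low bins of the same stretches stood at 0.225 and 0.228 against 0.194 and 0.197. Those of the short arm stood at 0.225 and 0.230, so low bins of distal 10q were no higher than these. Enriched bins of the short arm had medians of 3.43 and 3.41. On distal 8q, from 80 to 146 Mb, the median enriched bin was at 4.12 and 4.15 against 3.33 and 3.31 on the long arm before the window.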
